A study of Arabidopsis thaliana with 8 samples.

Results

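The CESA and CSL genes of Arabidopsis thaliana were described here in whole seedlings of wild type and of tt8-3. They were found by name in a gene table of the TAIR10.1 assembly, as symbols or synonyms of CESA plus a number, or CSL plus a letter and a number. The rule matched 42 genes. In 2 of them the name stood only as a synonym of a gene outside the family while the same name was the symbol of a true member: CAB3 (AT1G29910, a chlorophyll-binding protein gene) for CSLB3, and AT1G29820 for CSLB4. These were set aside, which left 40 genes, 10 CESA and 30 CSL. A probe named by 1 gene was matched for 37 of the 40, among 25433 genes with such a probe in all. The exceptions were CESA10, CSLA1 and CSLD2, which were not analysed here. Of the 37, 31 were tested because all 4 arrays of wild type, of tt8-3 or of both lines read their probe as well above background, among 19225 genes tested in all.

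Cellulose synthases (CESA) are plasma membrane enzymes that join glucose from UDP-glucose into the chains of cellulose, and they work in complexes of several different CESA proteins. CESA1, CESA3 and members of the CESA6 group (CESA2, CESA5, CESA6, CESA9) build the primary wall of growing cells, and CESA4, CESA7 and CESA8 the secondary wall of xylem and fibres. The cellulose synthase-like (CSL) proteins are related glycosyltransferases, mostly of the Golgi, that make other wall polysaccharides. CSLA proteins make mannans, CSLC proteins the glucan backbone of xyloglucan, and CSLD proteins act in tip growth and cell plate formation, while the products of the Arabidopsis CSLB, CSLE and CSLG proteins are less well known.

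Total RNA of whole seedlings, 6 days old and grown on sucrose-containing MS medium, was hybridised to 8 1-colour Agilent arrays, 4 for tt8-3 and 4 for wild type, both in the Ws background. tt8-3 is a loss-of-function line of TT8, a transcription factor of the basic helix-loop-helix class known for its control of flavonoid genes, so 1 allele stood for the loss of TT8. The title of the series names the glycosylation of metabolites as a theme. Here the levels of wall glycosyltransferase genes are compared between the arrays of the lines. Each of 2 slides held 2 arrays of either line, and the sources speak of 2 biological replicates.

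Levels are log2 signals relative to the 75th percentile of their array, so that 0 is the level of a probe at that percentile. Levels of different genes come from different probes and are not compared. Replicates 1 and 2 of each line lay on slide 1 and replicates 3 and 4 on slide 2. For the main comparison the arrays that a line had on 1 slide were averaged, which gave 2 slide averages per line, and results on slide averages have no block for slide unless one is named. The design text can also be read with the first arrays of both slides as 1 sample and the second arrays as the other, and this averaging by position was run beside it. The p-values measure the spread between such averages, and that spread may be technical. Wild type lay in the earlier positions of each slide and tt8-3 in the later ones, so position and genotype cannot be told apart. TT8 (AT4G09820) read 4.26, 4.39, 4.19 and 4.29 on wild-type replicates 1 to 4. On tt8-3 it read -6.04, -5.56, -6.95 and -7.07, with no array well above background. The transcript fell in tt8-3, being at least 1521-fold lower, a bound that was not itself tested. The adjusted p in limma, 0.0018 and with averaging by position 0.000622, belongs to the measured log2 change of -10.69.

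Replicate arrays differed in a repeated way, in these genes and over all tested genes, which is given before the results. In wild type, 24 of the 31 tested genes were higher on the first than on the second array of both slides and 4 were lower on both. Among all tested genes, 46.8% were higher on the first array of both wild-type slides. In tt8-3, 14 of the 31 were higher on the first array of both slides and 7 lower, against 31.9% of all tested genes higher. Over the 31 genes the first-minus-second difference on slide 1 correlated with that on slide 2 at r = 0.91 in wild type and 0.90 in tt8-3, as a description in which the points of a line share their arrays. Over all tested genes this correlation was 0.88 in wild type and 0.67 in tt8-3. The arrays that were averaged within a slide were no more alike than other arrays of their line. Their consensus correlation in limma was -0.21 over all tested genes. If the reading by position holds, the slide averages of a line repeat the same samples, and the calls on them rest on technical spread. Arrays at the same place on both slides differed less, on average, than the arrays of 1 slide for 25 of the 31 genes in wild type and for 9 of the 31 in tt8-3. The share over all genes was not computed for these counts or for the genes lower on both slides. A gene with a large difference of this kind gets a small error from slide averages and a large one with averaging by position.

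**Figure D1:**
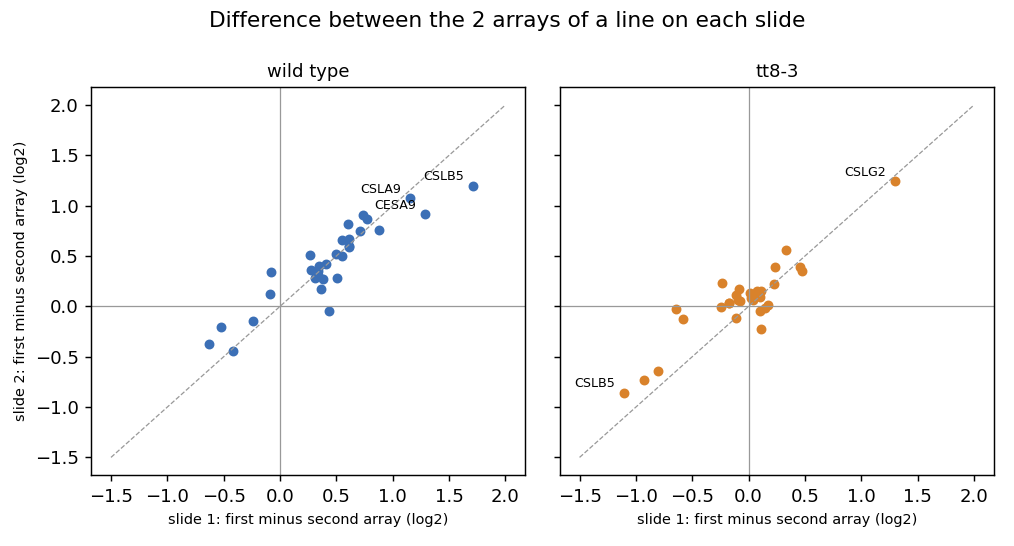
Each point is 1 of the 31 tested CESA and CSL genes, with the log2 difference between the first and the second array of the line on slide 1 (x axis) and on slide 2 (y axis), in wild type (left) and tt8-3 (right). The dashed line is equality. Points lie along it in both lines (r = 0.91 and 0.90), and CSLB5 lies at the upper end in wild type and at the lower end in tt8-3.

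Of the 31 tested genes, 6 passed an adjusted p of 0.05 on slide averages, where 26.7% of all 19225 genes passed. CSLC4 and CSLA15 rose in tt8-3 (15.7% of all genes rose) and CSLA9, CSLB1, CSLB3 and CSLG2 fell (11.0% of all genes fell). The 6 amount to 19.4% of the tested members, a share below that of all genes. CSLA15 came into the test through its tt8-3 arrays alone, so that it had to read higher there. Among genes well above background on all 8 arrays, 5 of 30 members passed, CSLC4 as higher and the other 4 as lower, where 25.9% of all genes passed. With median in place of 75th percentile scaling, 2 members were higher and 4 lower (24.7% of all genes passed), while the split over all genes turned from 3025 higher and 2112 lower to 2153 higher and 2597 lower. The median log2 change over the 31 genes was 0.04, against 0.01 over all genes tested. With averaging by position none of the 31 passed in limma, where 3.11% of all genes passed. An unadjusted p under 0.05 was found there for 6 of the 31, where 23.4% of all genes had one, and on slide averages for 10 of the 31, where 42.4% had one. With slide as a block, which takes out the shift between slides that both lines share, 18 of the 31 passed, where 64.6% of all genes passed.

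The 4 arrays of tt8-3 did not overlap the 4 of wild type for 5 of the 31 genes, where 33.1% of all genes tested did not overlap. CSLC4 and CSLA15 lay higher on every tt8-3 array (19.6% of all genes did), and CSLA9, CSLB1 and CSLB3 lower (13.5% did), with the limit on CSLA15 given above. In bulk seedlings, fewer cells of a type and less RNA per cell cannot be told apart.

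**Figure D2:**
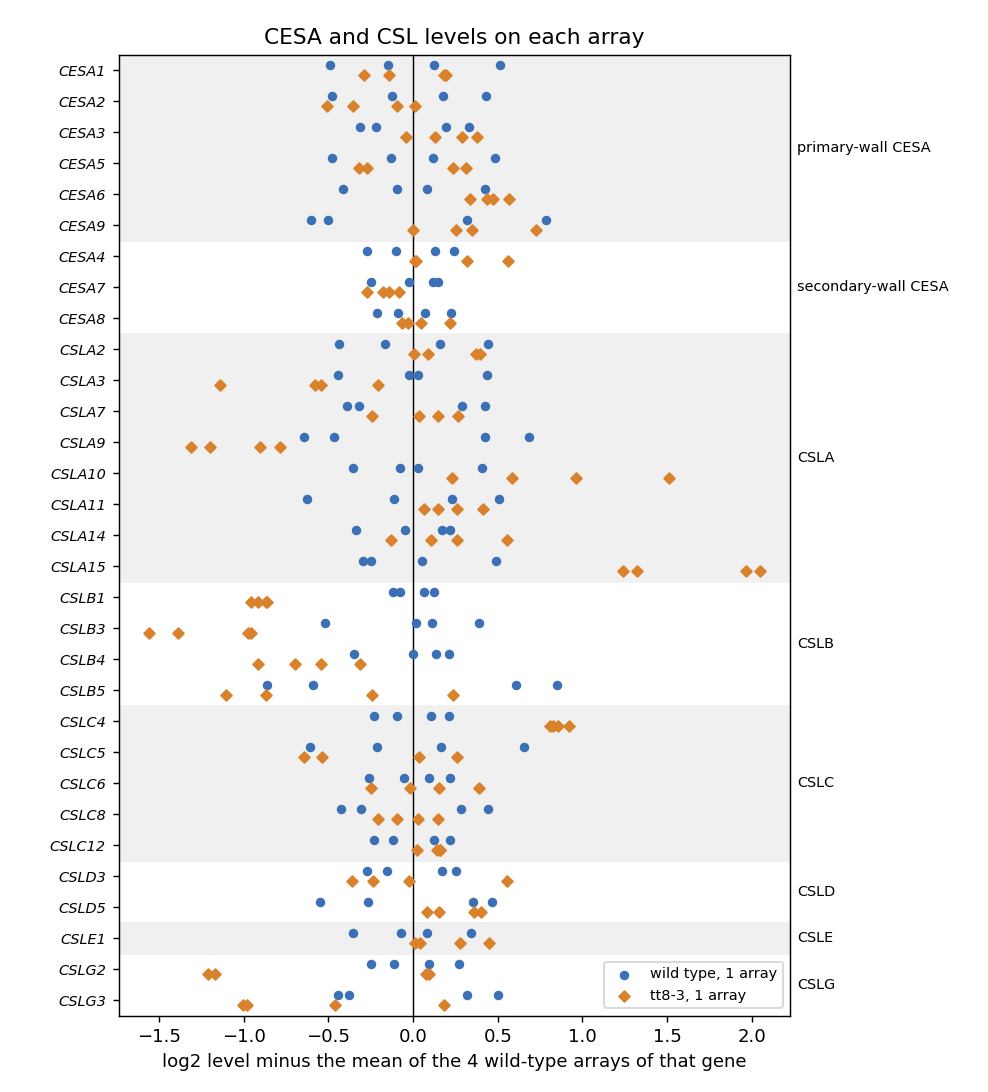
Log2 level of each tested CESA and CSL gene on each array, as the difference from the mean of the 4 wild-type arrays of that gene (x axis). Blue circles are wild-type arrays, orange diamonds tt8-3 arrays, and bands mark the classes. CSLA15 and CSLC4 have all 4 tt8-3 arrays to the right of wild type, and CSLA9, CSLB1 and CSLB3 all 4 to the left.

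None of the 6 primary-wall CESA genes on the array passed on slide averages in either direction, and in each the lines overlapped. Their log2 changes ran from -0.24 (CESA2) to 0.45 (CESA6), with a median of 0.09 that turned to -0.01 with median scaling. An unadjusted p under 0.05 was found in limma for 1 of the 6 on slide averages (42.4% of all genes) and 0 with averaging by position (23.4%). CESA1 (AT4G32410, chromosome 4), a catalytic subunit of the primary-wall complex, read 2.16, 1.55, 2.55 and 1.89 on wild-type replicates 1 to 4 and 1.90, 1.75, 2.22 and 2.23 on tt8-3 replicates 1 to 4. The highest and the lowest of these are both wild-type arrays, and the change was -0.01 (95% confidence interval -0.57 to 0.55). CESA3 (AT5G05170, chromosome 5), which shares the complex with CESA1, read 4.28, 3.73, 4.14 and 3.64 in wild type and 4.24, 4.33, 4.08 and 3.91 in tt8-3. The second arrays of wild type were lowest, and the change of 0.19 (interval -0.18 to 0.56) did not pass (adjusted p = 0.355). For both genes a fainter probe gave a higher value, 0.34 for CESA1 and 0.43 for CESA3.

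The CESA6 group provides the remaining, partly interchangeable subunits of the primary-wall complex. CESA6 (AT5G64740, chromosome 5) read 1.97, 1.48, 2.31 and 1.79 in wild type and 2.32, 2.22, 2.46 and 2.36 in tt8-3. Wild-type replicate 3 lay among the tt8-3 arrays and the other wild-type arrays lay below them all. The change was 0.45 (SE 0.147, adjusted p = 0.0929), 0.55 within slide 1 and 0.36 within slide 2. It passed under the block on slide (adjusted p = 0.0109) and did not with averaging by position (adjusted p = 0.299). CESA2 (AT4G39350, chromosome 4) read 2.61, 2.05, 2.35 and 1.70 in wild type and 2.19, 2.08, 1.82 and 1.67 in tt8-3. Slide 2 was lower than slide 1 in both lines, the lines overlapped, and the change of -0.24 (interval -0.75 to 0.28) passed when slide was a block (adjusted p = 0.0231) and not on slide averages (adjusted p = 0.403). CESA5 (AT5G09870, chromosome 5), known for its part in seed coat mucilage, read 0.70, 0.09, 0.34 and -0.26 in wild type and 0.45, 0.53, -0.05 and -0.10 in tt8-3. Here too the slides differed more than the lines, with a change of -0.01 (interval -0.68 to 0.66). CESA9 (AT2G21770, chromosome 2), which acts in the seed coat, read -3.11, -4.40, -3.58 and -4.49 in wild type and -3.17, -3.64, -3.55 and -3.90 in tt8-3. Its second wild-type arrays lay under the first by 1.28 on slide 1 and 0.92 on slide 2, and the change of 0.33 (interval -0.13 to 0.79) passed under the block on slide (adjusted p = 0.00845) but not on slide averages (adjusted p = 0.211).

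The 3 secondary-wall CESA genes, whose proteins form 1 complex and whose loss collapses xylem vessels, gave no call on slide averages, nor any at an unadjusted p under 0.05 in limma. CESA4 (AT5G44030, chromosome 5) read -0.82, -1.16, -0.93 and -1.33 in wild type and -0.74, -0.50, -1.05 and -1.04 in tt8-3. The tt8-3 arrays of slide 1 were highest and those of slide 2 lay within the wild-type range, and the change was 0.23 (interval -0.25 to 0.71). CESA7 (AT5G17420, chromosome 5) read -1.25, -1.61, -1.22 and -1.39 in wild type and -1.64, -1.54, -1.45 and -1.51 in tt8-3. Wild-type replicate 2 lay among the tt8-3 arrays, and the change of -0.17 (interval -0.44 to 0.11, adjusted p = 0.279) passed when slide was a block (adjusted p = 0.0397). CESA8 (AT4G18780, chromosome 4) read -0.43, -0.74, -0.58 and -0.86 in wild type and -0.61, -0.44, -0.68 and -0.72 in tt8-3. The tt8-3 arrays lay inside the wild-type range, and the change of 0.04 (interval -0.27 to 0.35) turned to -0.06 with median scaling.

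**Figure D3:**
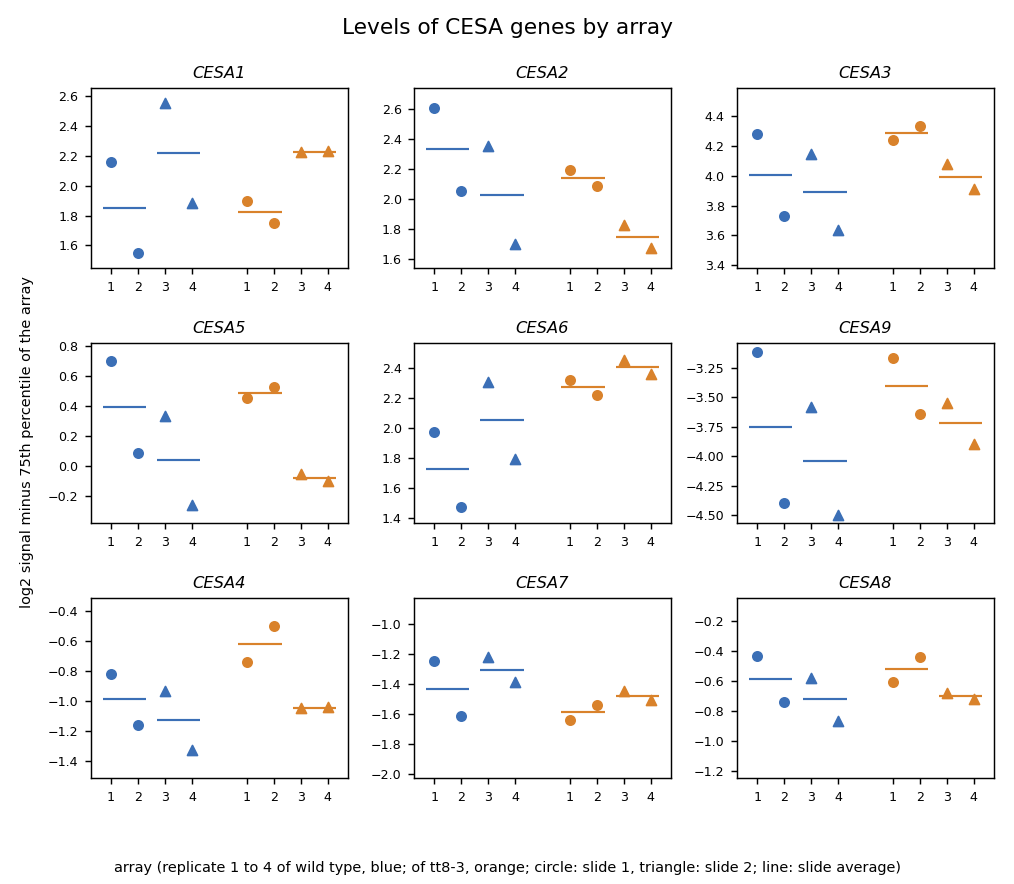
Log2 level of each of the 9 CESA genes (relative to the 75th percentile, y axis, own scale per gene) on each array (x axis, replicates 1 to 4 of wild type in blue and of tt8-3 in orange). Circles are slide 1, triangles slide 2 and lines the slide averages, and in every one of the 9 genes the lines overlap.

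The CSLA genes encode mannan synthases, and the 2 calls among 8 tested genes (26.7% of all genes passed) went in opposite directions, CSLA15 through a filter that its tt8-3 arrays alone met. CSLA9 (AT5G03760, chromosome 5), which makes most of the glucomannan of stems and is needed in roots for transformation by Agrobacterium, fell in tt8-3. It read 1.75, 0.60, 1.49 and 0.42 in wild type and 0.16, 0.28, -0.13 and -0.25 in tt8-3. All 4 tt8-3 arrays lay below all 4 of wild type, by a narrow margin from wild-type replicates 2 and 4 and a wide one from replicates 1 and 3. The means were 1.06 ± 0.154 and 0.01 ± 0.289 (SD of slide averages, n = 2), and the level was 2.07-fold lower (log2 change -1.05, SE 0.18, adjusted p = 0.0239). The change was -0.95 within slide 1 and -1.15 within slide 2, and it did not pass with averaging by position (adjusted p = 0.207). It was also lost without wild-type replicate 1 (-0.76, adjusted p = 0.0761), without wild-type replicate 3 (-0.78, adjusted p = 0.148) and without the wild-type average of slide 1 (-0.94, adjusted p = 0.0549).

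CSLA15 (AT4G13410, chromosome 4) rose from a level not well above background. It read -6.13, -6.57, -6.91 and -6.86 in wild type, where no array was well above background, and -5.38, -4.57, -5.30 and -4.65 in tt8-3, where all 4 were. The lines did not overlap, and the second tt8-3 array of each slide was the higher. The level was at least 2.04-fold higher in tt8-3, a bound that was not itself tested. It was set, per wild-type array, against the faintest probe still called well above background, or the probe's own value where that was higher. Since wild type gives only a bound, the measured log2 change of 1.64 is a description. Its adjusted p in limma was 0.0127, and 0.0644 with averaging by position, after a filter that the tt8-3 arrays alone met. With normexp background correction without spots of uneven or outlying local background the measured change was 0.28 (adjusted p = 0.237). That correction adds an offset of 50 to every signal, which makes log2 changes of faint probes smaller. It therefore cannot decide the size of the change of this faint gene.

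CSLA10 (AT1G24070, chromosome 1) read -2.69, -3.07, -3.18 and -3.46 in wild type and -2.51, -1.59, -2.87 and -2.14 in tt8-3. The 3 highest arrays were tt8-3 arrays and tt8-3 replicate 3 lay inside the wild-type range. The change of 0.82 (SE 0.231) did not pass on slide averages (adjusted p = 0.0686) and passed under the block on slide (adjusted p = 0.00204). CSLA3 (AT1G23480, chromosome 1) read 1.56, 1.15, 1.1 and 0.68 in wild type and 0.92, 0.58, 0.55 and -0.01 in tt8-3. On each slide both tt8-3 arrays lay below both wild-type arrays, and the change was -0.61 within slide 1 and -0.63 within slide 2. The adjusted p was 0.139 on slide averages and 0.00279 with slide as a block, and a fainter probe gave -0.31. CSLA2, which makes the glucomannan of seed mucilage, CSLA7, which is needed for embryo development, CSLA11 and CSLA14 had changes of 0.05 to 0.22 with adjusted p of 0.338 to 0.751. Among these, CSLA2 (0.21, adjusted p = 0.0255) and CSLA14 (0.20, adjusted p = 0.0374) passed with slide as a block, CSLA7 turned to -0.05 with median scaling, and a fainter probe of CSLA11 gave 0.93. Over the 8 genes the median change was 0.21.

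The 4 tested CSLB genes all had negative changes, with 2 of them past the threshold (26.7% of all genes passed, 11.0% as lower) and a median log2 change of -0.76 against 0.01 over all genes. CSLB1 (AT2G32610, chromosome 2) fell 1.87-fold and CSLB3 (AT2G32530, chromosome 2) fell 2.33-fold. CSLB1 read -1.90, -1.66, -1.85 and -1.71 in wild type and -2.64, -2.74, -2.70 and -2.65 in tt8-3. The 4 arrays of each line lay close together and the lines did not overlap. The change was -0.90 (SE 0.082, adjusted p = 0.00773), -0.91 within slide 1 and -0.89 within slide 2. It passed in all 12 fits that left out an array or a slide average, and did not with averaging by position (adjusted p = 0.0651).

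CSLB3 read -3.13, -2.50, -2.59 and -2.22 in wild type and -3.99, -4.17, -3.57 and -3.58 in tt8-3. Slide 2 was the higher in both lines, and every tt8-3 array lay below every wild-type array. The change was -1.22 (SE 0.239, adjusted p = 0.0318), -1.27 within slide 1 and -1.17 within slide 2, and a fainter probe gave -0.81. It was lost with averaging by position (adjusted p = 0.0698), without wild-type replicate 2 (-1.06, adjusted p = 0.0715) and without the wild-type average of slide 2 (-1.02, adjusted p = 0.0575).

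CSLB4 (AT2G32540, chromosome 2) read -1.14, -1.06, -1.27 and -1.62 in wild type and -1.58, -1.81, -1.96 and -2.19 in tt8-3. The lines overlapped only through wild-type replicate 4 and tt8-3 replicate 1, which lay on different slides. The change was -0.62 (SE 0.195, adjusted p = 0.0875), and it passed when slide was a block (adjusted p = 0.00283). CSLB5 (AT4G15290, chromosome 4) read -3.76, -5.47, -4.00 and -5.20 in wild type and -5.48, -4.37, -5.71 and -4.85 in tt8-3. The first tt8-3 array of each slide lay below the first of wild type, while the second tt8-3 array lay above the second of wild type. The change of -0.49 (adjusted p = 0.0788) passed under the block on slide (adjusted p = 0.0274), and with averaging by position its interval ran from -2.05 to 1.06. Leaving out an array or a slide average moved it from -0.92 (without wild-type replicate 2) to -0.07 (without wild-type replicate 1), and it passed without tt8-3 replicate 2 (adjusted p = 0.0152) and without the tt8-3 average of slide 1 (adjusted p = 0.0349). CSLB2 (AT2G32620, chromosome 2) exceeded background clearly on 3 arrays of wild type and 1 of tt8-3 and was not tested. It read -5.73, -5.85, -5.42 and -5.52 in wild type and -6.38, -6.85, -6.53 and -5.86 in tt8-3. The tt8-3 arrays lay lower, with replicate 4 just under the lowest wild-type array. CSLB6 (AT4G15320, chromosome 4) had no array well above background and was not tested. It read -7.97, -8.54, -7.94 and -8.12 in wild type and -7.10, -7.68, -7.66 and -7.42 in tt8-3. Its tt8-3 arrays all lay higher, the opposite of CSLB2, with a measured difference of 0.68 at this faint level.

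CSLB3 and CSLB4 lie next to each other on chromosome 2, as do CSLB1 and CSLB2, and 5 protein-coding genes separate CSLB4 from CSLB1 in TAIR10.1. These 4 neighbours were all lower in tt8-3 on both slides by measured values, CSLB2 without a test. The genes of such a cluster are close copies, and whether a probe also binds the RNA of a neighbour was not tested. The CSLB median stayed between -0.88 and -0.67 in the 12 fits that left out an array or a slide average, and the 4 tested genes were below 0 within both slides, with median scaling and with quantile normalization. With the planned normexp, which broke down on tt8-3 replicate 4, CSLB5 turned to 0.36. CSLB1 and CSLB3 were then -0.34 and -0.27 (adjusted p = 0.44 and 0.697). Normexp without spots of uneven or outlying local background left all 4 below 0, with a median of -0.60. An unadjusted p under 0.05 was found for 4 of the 4 on slide averages (42.4% of all genes) and 3 of the 4 with averaging by position (23.4%), where none passed after adjustment in limma.

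The CSLC genes encode the synthases of the xyloglucan backbone, and 1 of 5 passed, beside 26.7% of all genes. CSLC4 (AT3G28180, chromosome 3), the best characterised of these synthases, rose 1.80-fold in tt8-3. It read 2.00, 1.66, 2.11 and 1.80 in wild type and 2.75, 2.72, 2.81 and 2.70 in tt8-3. Every tt8-3 array lay above every wild-type array, and the tt8-3 arrays differed less among themselves than those of wild type. The change was 0.85 (SE 0.0925, adjusted p = 0.0103), 0.90 within slide 1 and 0.80 within slide 2. It passed in all 12 fits that left out an array or a slide average (0.77 to 0.94), and not with averaging by position (adjusted p = 0.0905). The other 4, CSLC5, CSLC6, CSLC8 and CSLC12, had changes of -0.22, 0.07, -0.03 and 0.12, with adjusted p of 0.378 to 0.872, and none passed with slide as a block. Of these, CSLC6 turned to -0.03 with median scaling and CSLC12 to -0.01 with quantile normalization. A fainter probe of CSLC8, with no array well above background, gave 0.55. The median over the 5 genes was 0.07, and -0.03 with median scaling.

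**Figure D4:**
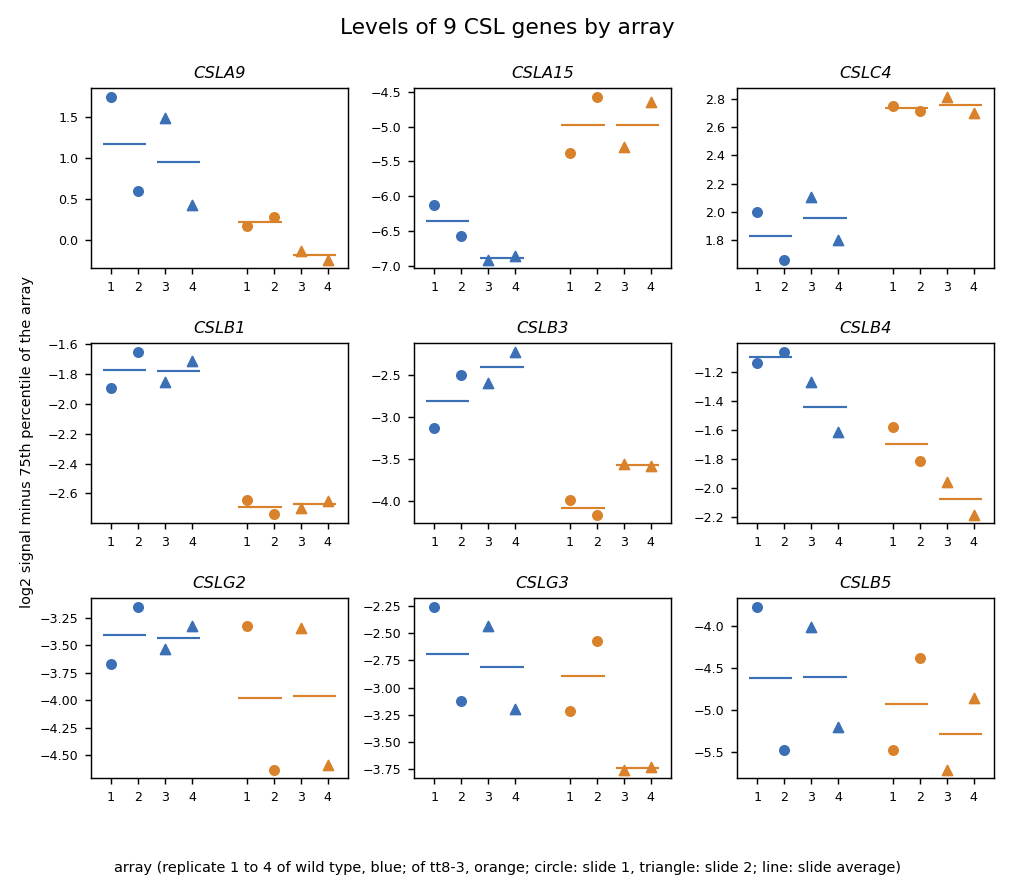
Log2 level (relative to the 75th percentile, y axis, own scale per gene) of 9 CSL genes on each array (x axis, replicates 1 to 4 of wild type in blue and of tt8-3 in orange). Circles are slide 1, triangles slide 2 and lines the slide averages. CSLC4, CSLB1, CSLB3, CSLA9 and CSLA15 separate the lines on all arrays, while CSLG2 and CSLB5 alternate between the first and the second array of each slide.

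Of the CSLD genes, 2 were tested and neither passed, on slide averages or at an unadjusted p under 0.05 in limma. CSLD3 (AT3G03050, chromosome 3), which root hairs need for tip growth, read 1.16, 1.24, 0.84 and 0.72 in wild type and 0.97, 1.55, 0.63 and 0.75 in tt8-3. Slide 1 was higher than slide 2 in both lines, and the change was -0.02 (interval -0.72 to 0.69), which turned to 0.03 with quantile normalization. CSLD5 (AT1G02730, chromosome 1), which acts in cell plate formation, read 1.62, 0.89, 1.51 and 0.60 in wild type and 1.56, 1.52, 1.31 and 1.24 in tt8-3. Its second wild-type arrays were low while the tt8-3 arrays lay together inside the wild-type range. The change was 0.25 (adjusted p = 0.25), it passed when slide was a block (adjusted p = 0.0183), and a fainter probe gave 0.70. CSLD1 and CSLD4, which pollen tubes need, and CSLD6 were below the filter. CSLD4 and CSLD6 had no array well above background, and CSLD1 had 1, of tt8-3.

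CSLE1 (AT1G55850, chromosome 1), the sole CSLE gene found, read 2.16, 2.58, 1.88 and 2.32 in wild type and 2.51, 2.68, 2.27 and 2.25 in tt8-3. The lines overlapped, and the change of 0.19 (interval -0.27 to 0.66, adjusted p = 0.443) passed under the block on slide (adjusted p = 0.033).

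The CSLG genes form a cluster on chromosome 4 with no other protein-coding gene between CSLG3, CSLG2 and CSLG1. A protein related to this class in spinach adds a sugar to triterpenoid saponins. CSLG2 (AT4G24000) passed on slide averages, with values that depended on the array within a slide. It read -3.67, -3.15, -3.54 and -3.33 in wild type and -3.33, -4.63, -3.34 and -4.59 in tt8-3. The first tt8-3 arrays lay inside the wild-type range and the second ones well below it, so the lines overlapped. The change was -0.55 (SE 0.0823, adjusted p = 0.0181; -0.59 from a fainter probe), and the slide averages of a line differed far less (SD 0.0164 in wild type and 0.0109 in tt8-3) than its arrays. It did not pass with averaging by position (adjusted p = 0.511), with 8 single arrays (adjusted p = 0.239), with the replicate number as a block (adjusted p = 0.284) or in any of the 12 fits that left out an array or a slide average (-0.88 to -0.23). The lowest size, -0.23, came without tt8-3 replicate 2 (adjusted p = 0.506), and -0.24 without tt8-3 replicate 4 (adjusted p = 0.494).

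CSLG3 (AT4G23990) read -2.25, -3.13, -2.43 and -3.20 in wild type and -3.21, -2.57, -3.76 and -3.73 in tt8-3. Both tt8-3 arrays of slide 2 lay below every wild-type array, while on slide 1 the lines crossed. The change of -0.57 (SE 0.309, adjusted p = 0.24) was -0.20 within slide 1 and -0.93 within slide 2, and without the tt8-3 average of slide 1 it was -0.99 and passed (adjusted p = 0.0135). CSLG1 (AT4G24010) exceeded background clearly on 2 arrays of wild type and 3 of tt8-3 and was not tested. It read -3.79, -5.91, -4.06 and -5.59 in wild type and -5.03, -5.78, -5.02 and -5.25 in tt8-3. Both second wild-type arrays were low, and the lines overlapped.

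**Figure D5:**
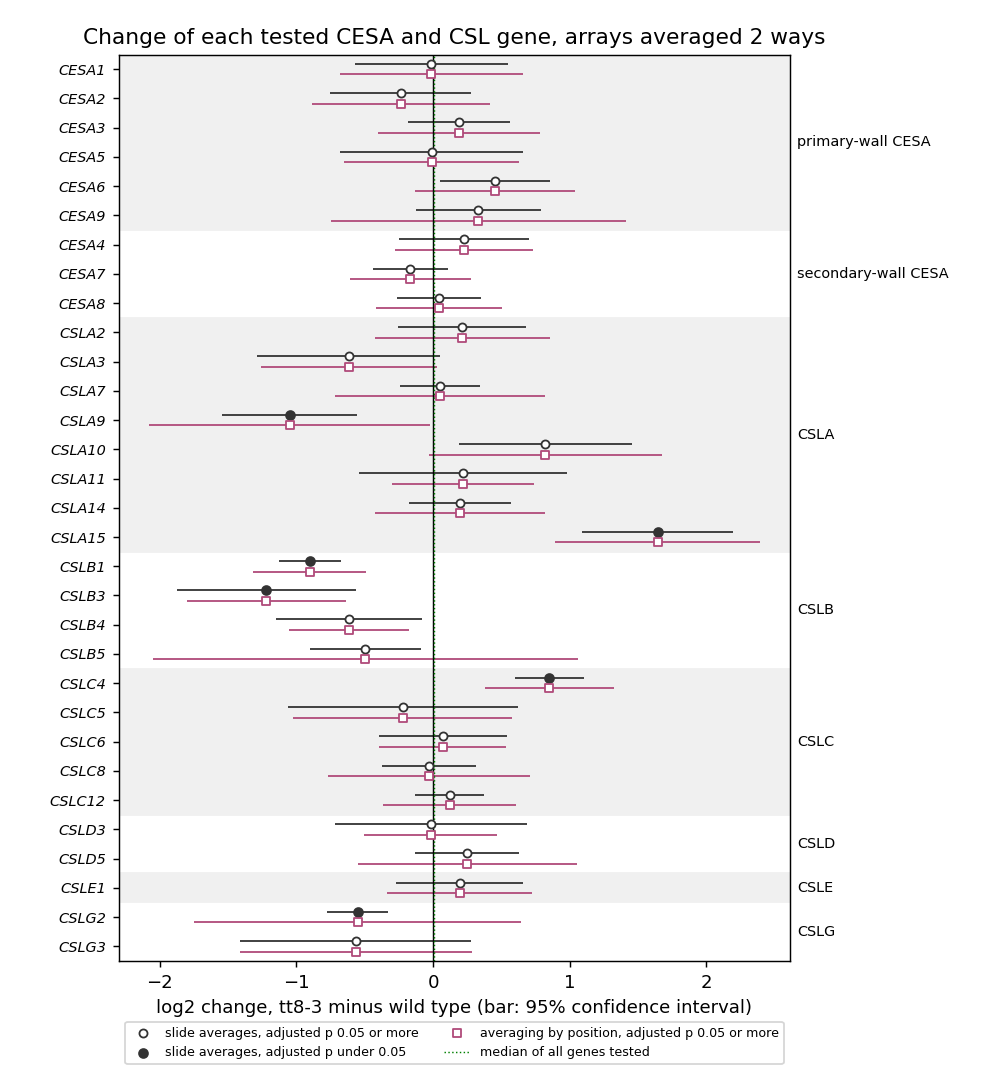
Log2 change (tt8-3 minus wild type, x axis) of each tested gene with its 95% confidence interval, from slide averages (circles) and from averaging by position (squares). Filled circles have an adjusted p under 0.05, the dotted line is the median of all genes tested (0.01), and no square passes. The intervals of CSLG2 and CSLB5 widen most, to -1.75 to 0.65 and -2.05 to 1.06 with averaging by position.

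The genes that work beside the CESA proteins were counted from lists of known wall genes. Of 19 partners of the synthase complex, 13 were named in the gene table and 12 tested. None passed in limma on slide averages (26.7% of all genes passed) and none with averaging by position (3.11%). None had an unadjusted p under 0.05 in either, where 42.4% and 23.4% of all genes had one. With slide as a block 6 were higher, where 64.6% of all genes passed in either direction. KOR1 (AT5G49720), the endoglucanase of the complex, had a change of 0.21 (adjusted p = 0.573). CSI1 (AT2G22125), which links the complex to microtubules, had 0.21 (adjusted p = 0.253), and COB (AT5G60920), a membrane-anchored protein that orients microfibrils, had 0.29 (adjusted p = 0.142). These 3 passed when slide was a block (adjusted p = 0.0287, 0.0242 and 0.0219). The chitinase-like CTL1 (AT1G05850) had -0.10 (adjusted p = 0.552), or 0.11 with quantile normalization.

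Of 17 secondary wall genes 15 were tested, with 1 higher, 1 lower (26.7% of all genes passed) and a median change of 0.02. With median scaling and with quantile normalization 1 was higher and 3 lower, where 24.7% of all genes passed with median scaling. PARVUS (AT1G19300), of xylan synthesis, rose by 0.67 (SE 0.14, adjusted p = 0.0367), and LAC17 (AT5G60020), a laccase of lignin formation, fell by 0.50 (SE 0.0821, adjusted p = 0.0218). Neither passed with averaging by position (adjusted p = 0.207 and 0.295) nor with the replicate number as a block (adjusted p = 0.0555 and 0.0506), and each was kept in 4 of the 12 fits that left out an array or a slide average. The block on slide gave 5 higher and 4 lower genes, where 64.6% of all genes passed. Of the 10 hemicellulose genes named and tested 1 passed, beside 26.7% of all genes: XXT3 (AT5G07720), a xyloglucan xylosyltransferase, rose by 0.38 (SE 0.0867, adjusted p = 0.0436), and the median was 0.12. XXT3 was lost with averaging by position (adjusted p = 0.307), with the replicate number as a block (adjusted p = 0.0784), with median scaling (0.28, adjusted p = 0.126) and in 11 of the 12 fits that left out data. XXT5, MUR3 and MSR2, which act with the CSLC and CSLA proteins, had 0.25, 0.22 and 0.46 and XLT2 had -0.30, with adjusted p of 0.0743 to 0.175 on slide averages. These 4 passed with slide as a block (64.6% of all genes did), XLT2 as lower.

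Organ markers were measured in the same arrays, as summed signal relative to the 75th percentile. None of the 5 shoot markers passed in limma on slide averages (26.7% of all genes passed), nor at an unadjusted p under 0.05 (42.4%). Their sum was 930.2 to 2107 in wild type and 806.8 to 1611 in tt8-3. With slide as a block all 5 passed as lower, where 64.6% of all genes passed in either direction. Their changes were alike, from -0.44 (LHCB1.1) to -0.36 (CAB3). Whether their probes bind the RNA of one another was not tested, so they may not be 5 separate results. RBCS1A had -0.41 (adjusted p = 0.0118 with the block), and the median over the 5 was -0.39. Of 5 root markers PYK10 rose (0.71, adjusted p = 0.0209), NRT2.1 fell (-2.05, adjusted p = 0.0032) and PHT1;1 fell (-0.65, adjusted p = 0.0303), where 26.7% of all genes passed. Their sums were 19.9 to 37.1 and 33.4 to 42.9. The sums of the lines overlapped, with both the lowest and the highest array higher in tt8-3, while the median change was -0.65 and 4 of the 5 genes were below 0. PYK10 made up most of the sum on each array, at log2 levels of 3.88 to 5.29, where PHT1;1, the next, read at most 2.26. The sum thus mainly follows that 1 gene and does not measure the share of root. By position NRT2.1 (adjusted p = 0.0274) and IRT1 (-1.71, adjusted p = 0.0292) passed, and PYK10 (adjusted p = 0.3) and PHT1;1 (adjusted p = 0.205) did not. Over all genes 3.11% passed by position. IRT1 also passed under the block on slide (adjusted p = 0.00794). Among 4 tested root hair markers, beside which CSLD3 stands, PRP3 fell (-1.26, adjusted p = 0.0402), where 26.7% of all genes passed. The sums of all 6 were 0.161 to 0.349 and 0.205 to 0.300. PRP3 did not pass by position (adjusted p = 0.234) and passed in 7 of the 12 fits that left out an array or a slide average. COW1 had 0.91 (adjusted p = 0.112) and passed as higher under the block on slide (adjusted p = 0.00424). The 3 xylem markers, beside which the secondary-wall CESA genes stand, were XCP1, XCP2 and VND7, which were already counted among the secondary wall genes. None passed in limma on slide averages, and the sums were 3.16 to 3.96 and 3.33 to 3.98. VND7, at log2 levels of -4.98 to -3.81, added little to these sums. VND7 had -0.61 (adjusted p = 0.0516, unadjusted p under 0.05) and passed as lower under the block on slide (adjusted p = 0.0113). XCP1 and XCP2 had 0.02 and 0.04. Of the 4 pollen markers none was tested and 3 had no array well above background, with sums of 0.0136 to 0.0365 and 0.0107 to 0.0288. The part of organ or cell composition in the changes of the CSL genes was not tested.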

How the data were processed

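The authors quantified each array with Agilent Feature Extraction (version 10.7.1.1 in the submitters' processing notes). The scanner files hold spot intensity values, per the file headers: a processed signal with the background removed, median signals of spots and local background, and other deposited columns of 0 or 1 flags (well above background, saturated, uneven). The deposited value table holds log2 values. Set against the scanner files, it held the log2 processed signal after 75th percentile scaling, with each probe centred on its median within a slide. Other steps are not given in the sources used here.

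From the processed signal, log2 values minus the 75th percentile of the array were computed over 43603 probes. Control spots and uneven or outlying spots (4 to 23 per array) were left out and repeated spots averaged. No spot was saturated. The 75th percentile signal was 546.7 to 1113 per array, and the share of probes well above background was 68.8% to 71.5% in wild type and 70.7% to 77.1% in tt8-3, which with the number of arrays limits the precision. Transcript accessions named 34358 probes by 1 gene and left 9245 unnamed. For the 6940 genes with several probes the brightest stood for the gene, and the change of a fainter probe is given for each member that has one. Slide averages were compared in R 4.3.3 with the lmFit and eBayes functions of limma 3.58.1, with Benjamini-Hochberg adjustment over all tested genes and a threshold of 0.05. The fit was tested on simulated data with independent averages. These held no shared slide shift and no repeated array difference, so that test cannot judge the effect of either here.

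Same-numbered arrays of the lines, which share a slide, deviated together (correlations of 0.277, 0.344, 0.312 and 0.383 over genes). The slide averages of the lines deviated together more strongly (0.78), a shared shift for which the main comparison has no block. The samples were thus taken to be paired through the slide, and a pairing by replicate number beyond the slide is not shown by these values. Fits with slide or replicate number as a block were run. Other alternatives were averaging by position, 8 single arrays, a random block, 3 other normalizations or background corrections, the deposited table, other filters and probe rules, and leaving out arrays or slide averages.

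The members and lists were chosen with earlier results of these data known. The genes named are TT8, every gene found by the name rule, the listed wall genes past the threshold and KOR1, COB, CSI1 and CTL1. XXT5, MUR3, MSR2 and XLT2 and the organ markers were named after their values were seen. Of the lists, 7 gene names were not in the gene table and were not used. Gene positions are given as chromosome and neighbours only.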

Additional observations from a re-analysis of the deposited data

Results flagged for a closer look

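Among the 64 sets of 4 arrays examined for 1 array far from the others, 1 stood out. CSLC12, a xyloglucan glucan synthase gene, read -3.74 on tt8-3 replicate 4, while the other 3 tt8-3 arrays lay between -3.62 and -3.61. The gap was 0.894 of the range of the 4 arrays, above Dixon's 95% critical value. Chance marks about 5% of such sets, and the distance is small beside the wild-type arrays of CSLC12, which ran from -3.99 to -3.55.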

How the results depend on the processing

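Of all tested genes, 5137 passed with slide averages in limma. With averaging by position 597 passed, with slide as a replicate block on slide averages 12414, with normexp 105, 13889 with the values the authors deposited and without the filter on dim probes 2398. Of the CESA and CSL genes, 6 passed with slide averages, and 0, 18, 0, 19 and 3 in the same order. The deposited table is centred within slides, which takes out the shared slide shift as the replicate block does. Its fit had no block, however, so no degree of freedom was spent on that shift, and its counts are overstated. For CESA6 the change was 0.45 in both, with an adjusted p in limma of 0.0038 from the deposited table and 0.0109 under the block. Normexp broke down on tt8-3 replicate 4, where 1 spot lay 32257 below its local background, and raised the median change of all genes by 0.11, so normexp without spots of uneven or outlying background (marked spots) was added after seeing the data. For the other results whose count moved by over 1.5 times, the cause was not tested.

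By class, the pairing through slide as a replicate block on slide averages gave 3 primary-wall CESA genes, 1 secondary-wall CESA, 6 CSLA, 4 CSLB, 1 CSLD and 1 CSLE gene, 6 complex partners, 9 secondary wall and 5 hemicellulose genes, and the deposited table gave 3, 1, 6, 4, 1, 1, 9, 9 and 6, with 2 CSLC genes. Averaging by position and the planned normexp gave 0 in CSLA, CSLB, CSLC, CSLG, secondary wall and hemicellulose. Primary-wall CESA had 1 with the random block, with the replicate number as a block and with normexp without marked spots. CSLA had 4 with the random block and with slide as a block on 8 arrays, and 1 with normexp without marked spots, without the filter and with the filter on all 8 arrays. CSLB had 1 without the filter. CSLG had 0 on 8 arrays, with each block on 8 arrays, with normexp without marked spots and without the filter. Secondary wall had 1 on 8 arrays, 4 with the random block, with median scaling and with quantile normalization, 1 with normexp without marked spots and 0 without the filter. Hemicellulose had 2 with the random block, with the replicate number as a block and with the median over probes, 3 with slide as a block on 8 arrays, and 0 with quantile normalization, with normexp without marked spots and without the filter.

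Leaving out 1 array or slide average gave 2097 to 5036 calls over all genes, the lowest without the wild-type average of slide 2. Without the wild-type average of slide 1 it gave 2125, without wild-type replicates 1 to 4 in turn 2508, 2803, 2285 and 2966. For the CESA and CSL genes it gave 4 to 8, the lowest without wild-type replicate 2, without replicate 3 or without the wild-type average of slide 2 and the highest without the tt8-3 average of slide 1. CSLA gave 1 (without wild-type replicate 3) to 3, CSLB 1 (without wild-type replicate 2 or the wild-type average of slide 2) to 4 (without the tt8-3 average of slide 1), CSLC 1, and CSLG 0, with 1 without the tt8-3 average of slide 1. Secondary wall gave 0 to 2 and hemicellulose 0 to 1, with 0 secondary wall genes without wild-type replicate 1, 2 or 4 or either wild-type average. CESA, CSLD, CSLE and complex partners gave 0 in each.

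Among single genes, the sign turned for CESA1 (0.072 with quantile normalization, 0.087 with normexp without marked spots, 0.17 with the median over probes), CESA5 (0.22, normexp without marked spots), CESA8 (-0.056), CSLA7 (-0.048) and CSLC6 (-0.028) with median scaling, CSLC12 (-0.0057 with quantile normalization, -0.051 with normexp without marked spots), CSLC8 (0.26 with the median over probes), CSLD3 (0.027) and CTL1 (0.11) with quantile normalization. With the planned normexp it turned for CESA7 (0.053), CSLB5 (0.36), CSLC5 (0.22), CSLC8 (0.11), CSLG2 (0.23) and CSLG3 (0.032). Leaving out data turned CESA1 (-0.21 to 0.19), CESA5 (-0.29 to 0.27), CESA8 (-0.046 to 0.13), CSLA7 (-0.15 to 0.25), CSLA11 (-0.15 to 0.59), CSLC5 (-0.59 to 0.15), CSLC6 (-0.13 to 0.27), CSLC8 (-0.22 to 0.16), CSLD3 (-0.30 to 0.27), KOR1 (-0.052 to 0.47) and CTL1 (-0.31 to 0.11).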
